A study of Mus musculus with 5 samples.

Results

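The insulin-like growth factor (IGF) genes described here are the ligands Igf1 and Igf2, the receptors Igf1r and Igf2r, and the binding proteins Igfbp2 to Igfbp7, in 5 single-cell clones of Ocy454, an osteocyte-like cell line of the mouse. These 10 genes, of 23185 named genes on the array, were chosen by symbol, each with 1 probe set. The family was selected on RMA log2 values of these same clones, with the difference between high and low clones known, so that difference is given for the 10 genes as a description with no test. The submitters took 37 clones through a screen for Sost, which encodes the Wnt inhibitor sclerostin, and profiled 2 with high SOST (12H and 15H, high-Sost clones) and 3 with low SOST (4L, 9L and 24L, low-Sost clones). All clones were untreated and grown for 7 days at 37 °C in aMEM with FBS, and each is 1 clone measured on 1 array. Nothing gives the spread between cultures of a clone. Values are on the log2 scale of RMA (robust multi-array average), where 1 unit is a 2-fold difference, and are compared between clones for 1 gene at a time, since probe sets of different genes are not on a common level.

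IGF1 and IGF2 are small secreted hormones related to insulin. Both activate IGF1R, a receptor tyrosine kinase that signals through IRS proteins, PI3 kinase and AKT, and IGF2R removes IGF2 from the cell surface for degradation. Most IGF outside cells is held by IGF binding proteins, which store, carry or block it until proteases release it. Bone matrix is rich in IGFs, and cells of the osteoblast lineage make several binding proteins.

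The labels were set beside the markers of the cell type first. Sost itself read 4.08 in 12H and 3.92 in 15H against 3.78 to 3.91 in the low-Sost clones, a difference of 0.14 (SE 0.07). On these arrays the 2 kinds of clone were thus close in the signal of the gene they were chosen by. Of 10 osteoblast and osteocyte markers measured, 6 (Dmp1, Phex, Bglap, Alpl, Sp7 and Ibsp) read at least 2-fold higher in the high-Sost clones without overlap, a rule that 0.867% of all named genes met. The marker list was drawn up with earlier results of these data known, so nothing is read from that number. For Alpl the gap between the groups was only 0.37. Pdpn, a marker of early osteocytes, ran the other way without overlap, with 8.35 in 12H and 8.06 in 15H but 8.97 to 9.20 in the low-Sost clones (difference -0.92, SE 0.13). Mepe, a marker of mature osteocytes, read 2.79 to 3.05 in every clone, under the 95th percentile of 1354 olfactory and vomeronasal receptor genes. That percentile, 3.37 to 3.56 over the clones, serves here as a reference for weak signal. Dmp1 and Phex lay under it in every low-Sost clone, and Sp7 and Ibsp in 4L. Sost, at 3.78 to 4.08, lay little above that reference in every clone, so a difference in Sost could be hidden by weak signal. Of the markers of adipocytes (5 measured), muscle (5), blood and macrophages (4) and endothelium (5), 0 averaged 6 or more. Of 5 chondrocyte markers 1 did, Sox9, and of the 10 osteoblast and osteocyte markers 5 did. Above the receptor reference in every clone were 2 adipocyte, 2 chondrocyte, 3 muscle, 2 blood and macrophage and 0 endothelial markers. The osteoblast and osteocyte list had 5 such markers. Levels of different probe sets are not comparable, so neither count shows that a cell type is absent.

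Promoter windows of the 4 genes with the widest range over the clones (Igfbp5, Igfbp2, Igf1 and Igfbp7) are shown because these genes carry most of the differences below. Each is the 250 bases before a transcription start, from RefSeq on GRCm38.p6, read 5′ to 3′ on the gene's strand. Of the RefSeq starts, those of all 10 genes were matched, in 14 windows, with 4 starts for Igf2 and 2 for Igfbp2, of which the upstream one is shown. Capitals mark GC boxes (GGGCGG on either strand) and the E-box CACGTG.
Igf1, chr10:87860861-87861110, plus strand: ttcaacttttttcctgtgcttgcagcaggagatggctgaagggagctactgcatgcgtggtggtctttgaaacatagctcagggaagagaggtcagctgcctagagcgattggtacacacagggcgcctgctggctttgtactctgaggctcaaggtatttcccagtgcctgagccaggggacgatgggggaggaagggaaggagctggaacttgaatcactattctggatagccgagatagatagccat
Igfbp2, chr1:72824230-72824479, plus strand: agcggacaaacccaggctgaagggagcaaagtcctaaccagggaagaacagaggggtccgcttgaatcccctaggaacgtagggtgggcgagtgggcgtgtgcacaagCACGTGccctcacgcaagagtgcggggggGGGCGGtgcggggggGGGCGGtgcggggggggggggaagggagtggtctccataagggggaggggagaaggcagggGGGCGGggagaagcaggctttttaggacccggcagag
Igfbp5, chr1:72874866-72875115, minus strand: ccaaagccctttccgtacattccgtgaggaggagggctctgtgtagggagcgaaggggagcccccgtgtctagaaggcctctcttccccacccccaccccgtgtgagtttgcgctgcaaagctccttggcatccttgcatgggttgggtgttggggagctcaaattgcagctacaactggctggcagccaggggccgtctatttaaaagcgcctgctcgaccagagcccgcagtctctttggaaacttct
Igfbp7, chr5:77408046-77408295, minus strand: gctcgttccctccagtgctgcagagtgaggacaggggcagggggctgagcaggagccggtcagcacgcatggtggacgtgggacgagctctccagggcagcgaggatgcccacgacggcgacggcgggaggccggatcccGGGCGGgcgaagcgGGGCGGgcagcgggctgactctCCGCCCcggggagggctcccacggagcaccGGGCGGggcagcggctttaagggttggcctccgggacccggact

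The windows shown for Igfbp2 and Igfbp7 held 3 and 4 GC boxes, and those of Igf1 and Igfbp5 held 0. The window of the downstream Igfbp2 start held 0 GC boxes and 0 E-boxes, with a GC content of 56.4%. A GC box occurred in 32.7% of 32851 RefSeq windows of the same length. The E-box, found once in the upstream Igfbp2 window, occurred in 6.02%. Neither TATAAA (12.4% of windows) nor the forkhead motif TGTTTAC (3.17%), each searched on both strands, was found in these 4 windows. Their GC content was 67.2% for Igfbp2, 74.0% for Igfbp7, 58.8% for Igfbp5 and 52.8% for Igf1, against a median of 52.4% over all windows. A missing motif says only that the letters are not in this window.

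Among the ligands, Igf1 separated the 2 kinds of clone. It read 2.69 in 12H and 2.86 in 15H, while 4L, 9L and 24L gave 5.70, 3.69 and 6.68. Both high-Sost clones lay below every low-Sost clone, and both lay under the receptor reference (3.55 and 3.56), where signal cannot be told from background. Clone 9L, the lowest of the low-Sost clones, stood little above its reference of 3.42. The high-Sost mean was 2.77 ± 0.12 (SD, n = 2), the low-Sost mean 5.36 ± 1.53 (SD, n = 3) and their difference -2.58 (SE 1.03) or 5.99-fold, with the lower mean itself under the reference. In the order of the clones only the step from 9L to 4L exceeded the SD within groups of 1.25, and the gap between the groups was 0.83. In bulk RNA, fewer cells making Igf1 and less Igf1 RNA per cell cannot be told apart.

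Igf2, the ligand of fetal growth and an imprinted gene, did not separate the groups. It read 4.55 in 12H and 5.79 in 15H, against 5.50 in both 4L and 24L and 7.59 in 9L. Clone 9L stood alone, 1.80 above the next clone, a step larger than the SD within groups of 1.11. The high-Sost mean was 5.17 ± 0.88 (SD, n = 2), the low-Sost mean 6.20 ± 1.21 (SD, n = 3) and their difference -1.03 (SE 0.91). Without 9L it was -0.34, and without 12H -0.41. The clones with most Igf1, 24L and 4L, were thus not the clone with most Igf2.

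The receptors varied little. Igf1r, the signalling receptor, read 7.00 in 12H and 7.17 in 15H while 4L, 9L and 24L gave 6.84, 6.62 and 6.48. The groups did not overlap, and the high-Sost clones were higher by 0.44 (SE 0.13), with a gap of 0.17 between the groups, about the SD within groups of 0.16. Igf2r, the clearance receptor, read 7.45 in both 12H and 4L, 7.65 in 15H, 7.04 in 9L and 7.54 in 24L, a difference of 0.21 (SE 0.19) with overlapping groups, and 0.06 without 9L. Over all clones the range was 0.69 for Igf1r and 0.62 for Igf2r, against 3.99 for Igf1 and 3.04 for Igf2.

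**Figure D1:**
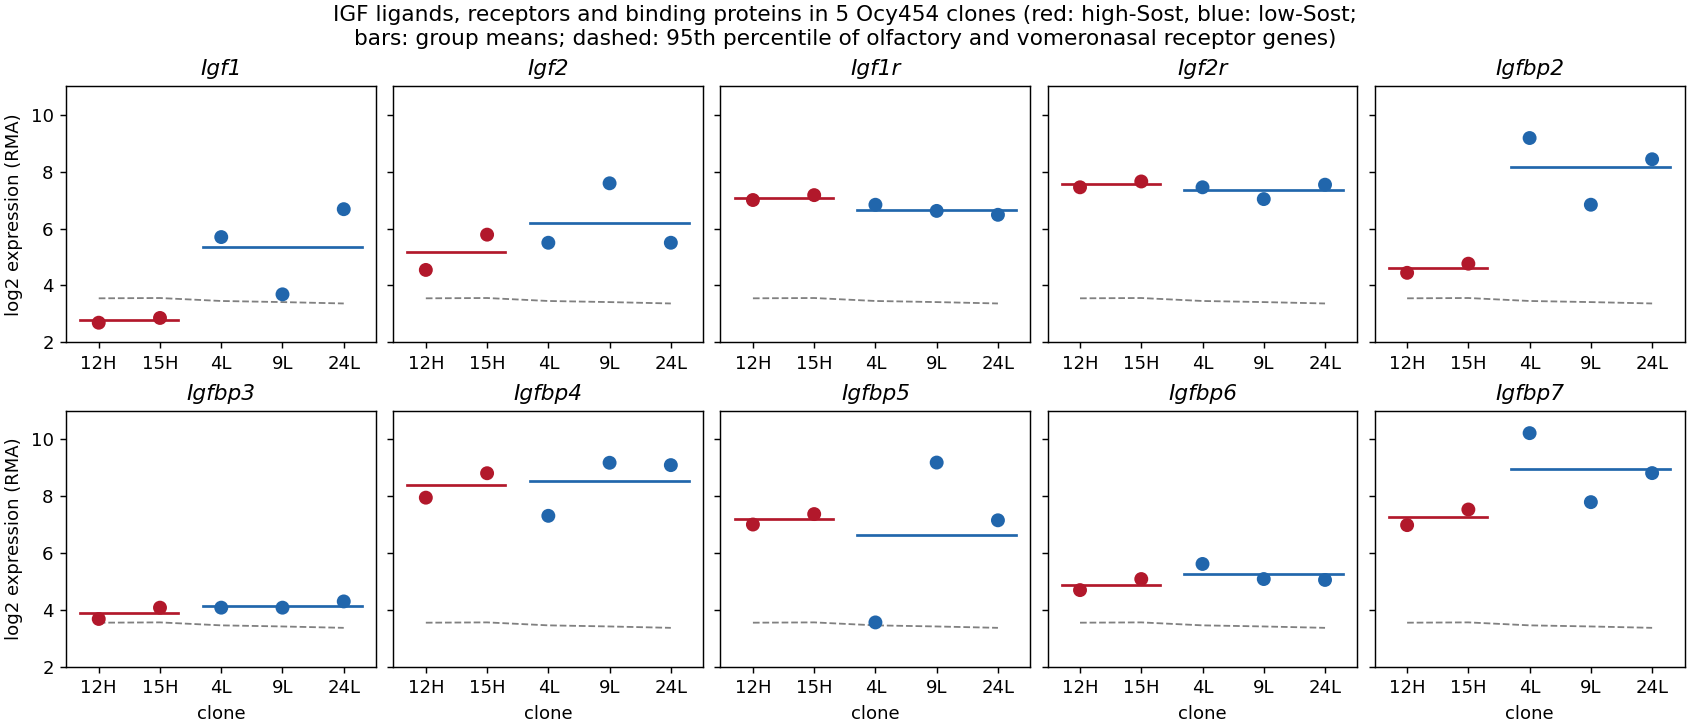
RMA log2 expression (vertical axis) of the 10 genes in each clone (horizontal axis), with red points for high-Sost clones, blue points for low-Sost clones, bars at the group means and a dashed line at the 95th percentile of olfactory and vomeronasal receptor genes. Igf1 lies under the dashed line in 12H and 15H, Igfbp2 is separated by the widest gap between the groups (2.07), and Igfbp5 is near the line in 4L (3.56) and highest in 9L (9.18).

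Of the binding proteins, Igfbp2 had the widest difference between the groups. Its protein binds both IGFs and, through an RGD motif, integrins on the cell surface. It read 4.44 in 12H and 4.76 in 15H, while 4L, 9L and 24L gave 9.18, 6.84 and 8.43. The high-Sost clones lay together, 2.07 below the lowest low-Sost clone, and above the receptor reference. The high-Sost mean was 4.60 ± 0.23 (SD, n = 2), the low-Sost mean 8.15 ± 1.20 (SD, n = 3) and their difference -3.55 (SE 0.81) or 11.7-fold. The steps from 15H to 9L and from 9L to 24L exceeded the SD within groups of 0.99, while 12H and 15H, and 24L and 4L, did not differ beyond it. Leaving out any 1 clone gave differences from -4.20 to -3.03.

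Igfbp7, whose protein binds IGFs weakly and also insulin, had the same order of clones. It read 6.98 in 12H and 7.53 in 15H, while 4L, 9L and 24L gave 10.2, 7.78 and 8.81. The groups did not overlap, but the gap between 15H and 9L was only 0.26, well within the SD within groups of 1.02. The high-Sost mean was 7.25 ± 0.39 (SD, n = 2), the low-Sost mean 8.93 ± 1.22 (SD, n = 3) and their difference -1.68 (SE 0.84) or 3.21-fold. Clone 4L was 1.40 above 24L, and without 4L the difference was -1.04.

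Igfbp5, a binding protein abundant in bone that also attaches to matrix, had the widest range of the 10 genes but hardly any difference between the groups. It read 7.00 in 12H, 7.37 in 15H and 7.15 in 24L, against 9.18 in 9L and 3.56 in 4L, close to the receptor reference of 3.45 in that clone. From 4L to 9L, both low-Sost clones, the range was 5.62 or 49.1-fold, and only the step from 4L to 12H exceeded the SD within groups of 2.33. The high-Sost mean was 7.18 ± 0.26 (SD, n = 2) and the low-Sost mean 6.63 ± 2.85 (SD, n = 3), a difference of 0.56 (SE 1.91). Its sign rested on 4L: without that clone the difference was -0.98, and without 9L it was 1.83.

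Igfbp2 and Igfbp5 are next to each other on chromosome 1, with no other protein-coding gene between them in RefSeq. Clone 4L read 2.34 (5.08-fold) above 9L for Igfbp2 and 5.62 below it for Igfbp5, so the neighbours ran in opposite directions between these 2 clones. Between 4L and 24L the Igfbp2 difference was 0.75 and the Igfbp5 difference -3.59. Genes of chromosome 1 with a mean of 6 or more (474 genes) were shifted by a median of -0.31 in 4L, 0.19 in 9L and 0.01 in 24L. With chromosome shifts subtracted, Igfbp2 read 9.50 in 4L, 6.65 in 9L and 8.43 in 24L, and Igfbp5 3.87, 8.98 and 7.14. The part of chromosome shifts in these differences was not tested.

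Igfbp4, a binding protein that mostly inhibits IGFs and is cut by the protease PAPPA, read 7.94 in 12H and 8.80 in 15H, while 4L, 9L and 24L gave 7.30, 9.17 and 9.09. The groups overlapped, no step in the order of clones exceeded the SD within groups of 0.93, and the difference was -0.15 (SE 0.76). It ran from -0.76 without 4L to 0.28 without 12H.

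Igfbp3, the main carrier of IGFs in blood, was weak in every clone. It read 3.68 in 12H, 4.08 in each of 15H, 4L and 9L, and 4.29 in 24L, a difference of -0.27 (SE 0.16). Of the 10 genes, 4 had values equal between arrays. Without 12H the Igfbp3 difference was -0.07, and without 15H -0.47.

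Igfbp6, whose protein prefers IGF2 to IGF1, read 4.69 in 12H, 5.08 in both 15H and 9L, 5.61 in 4L and 5.05 in 24L. The groups overlapped, with a difference of -0.36 (SE 0.25), which was -0.17 without 12H, -0.18 without 4L and -0.55 without 15H. Genes around it on chromosome 15 were likewise lowest in 12H and highest in 4L: Tns2 read 6.44 in 12H and 8.04 in 4L, Spryd3 6.02 and 7.22, and Csad 5.63 and 6.53. Over 347 genes of that chromosome with a mean of 6 or more, the median shift was -0.36 in 12H, -0.12 in 15H, 0.30 in 4L, 0.27 in 9L and -0.05 in 24L. With these shifts subtracted, the Igfbp6 difference was 0.05. Subtracting the shifts left Igf1 at -2.64, Igfbp2 at -3.60 and Igfbp7 at -1.68. Igfbp6, with group means of 4.89 and 5.25, was not among the genes that gave the shifts. The part of chromosome shifts in these differences was not tested.

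**Figure D2:**
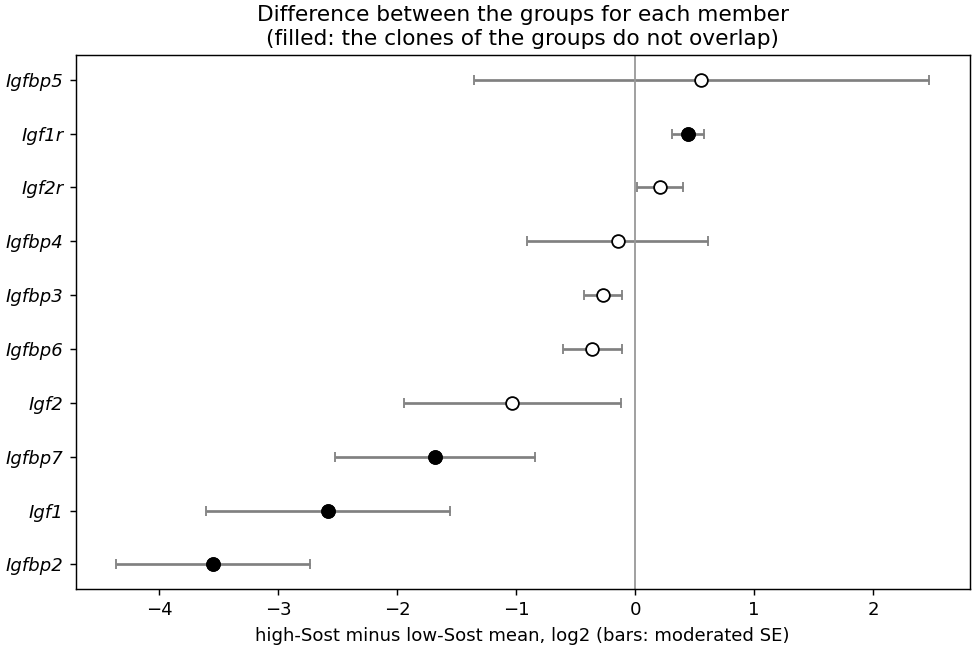
Difference between the high-Sost and low-Sost means on the log2 scale (horizontal axis) for each of the 10 genes (vertical axis), with the moderated SE of the limma fit as bars and filled points where the clones of the groups do not overlap. Igfbp2, Igf1 and Igfbp7 lie at -3.55, -2.58 and -1.68, Igf1r is filled at 0.44, and the widest bar is that of Igfbp5 (SE 1.91).

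Counted over the 10 genes, 3 (Igf1, Igfbp2 and Igfbp7) were at least 2-fold lower in the high-Sost clones without overlap and 0 at least 2-fold higher. By that rule 0.983% of all named genes were lower and 0.867% higher. Without regard to size 4 of the 10 had no overlap, against 16% of all named genes. The family was taken up with this contrast known, so nothing is read from these counts. The median difference was -0.32 over the 10 genes and 0.00 over all named genes. Igfbp7 met the rule at -1.68 with a gap of only 0.26 between the groups. Igf2, near the 2-fold limit at -1.03, did not meet it because its groups overlapped. Without 15H, Igf2 met the rule as well, at -1.65.

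Over the 5 clones, 5 of the 10 genes (Igfbp5, Igfbp2, Igf1, Igfbp7 and Igf2) spanned 2 or more log2 units, against 2.98% of all named genes and 3.84% of the 7807 with a mean of 6 or more. The family was selected on values of these same clones, and the range includes the known contrast, so nothing is read from this count either. The low-Sost clones spread further than the high-Sost clones for Igfbp5, Igfbp2, Igf1 and Igfbp7, with SDs of 1.20 to 2.85 against 0.12 to 0.39. For Igf2 the SDs were 1.21 and 0.88, and Igfbp3 went the other way (0.13 and 0.28). The SD of 0.12 is that of Igf1, whose high-Sost values lay under the receptor reference. These SDs rest on 3 low-Sost and 2 high-Sost clones. Each low-Sost clone had its own combination. Clone 4L had the highest Igfbp2, Igfbp7 and Igfbp6 and the lowest Igfbp4 and Igfbp5, clone 9L the highest Igf2, Igfbp4 and Igfbp5, and clone 24L the highest Igf1 and Igfbp3. Some of these ranks were narrow. Igfbp4 read 9.17 in 9L and 9.09 in 24L, and the weak Igfbp3 read 4.29 in 24L and 4.08 in 15H, 4L and 9L.

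Between the high-Sost clones, 12H read below 15H for all 10 genes, by 0.17 (Igf1 and Igf1r) to 1.24 log2 units (Igf2). Igf1 lay under the receptor reference in both clones, so its order carries no information. Over all named genes 38.9% read lower in 12H than in 15H, 41.4% higher and 19.7% equal, and among genes with a mean of 6 or more 48.9% read lower. With chromosome shifts subtracted, 10 of the 10, Igf1 included, still read lower in 12H, against 48.5% of all named genes. The family was selected on values of these same clones, so nothing is read from these counts. Each clone is 1 array, so a difference between these clones has no replicate check.

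Some markers of the osteoblast lineage differed between the same clones. The mean of the 10 markers was 7.97 in 12H, 7.68 in 15H, 6.42 in 9L, 6.31 in 24L and 4.58 in 4L. That mean does not stand for every marker, since Pdpn was lower in the high-Sost clones, Col1a1 was highest in 24L (11.6), and Mepe and Sost differed by -0.02 and 0.14. Clone 4L, with the lowest Igfbp5 and the highest Igfbp2 and Igfbp7, read 2.68 for Sp7, 2.24 for Ibsp and 6.21 for Alpl, where the other clones read at least 7.05, 8.35 and 10.4. Among the other markers, Des of muscle read 5.83 in 12H, 6.16 in 15H and 4.05 to 5.47 in the others, and Cd68 of macrophages was highest in 4L at 6.97. Averaged per clone, the marker lists of the other cell types ran from 2.91 to 3.26 for adipocytes, 4.08 to 4.36 for chondrocytes, 3.85 to 4.35 for muscle, 3.21 to 3.67 for blood and macrophages and 2.63 to 2.82 for endothelium. The part of these markers in the IGF differences was not tested.

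Genes with the most similar profiles were found for the 4 genes of widest range, by the root mean square distance between log2 profiles over the 5 clones after each gene was centred on its mean. For Igfbp2 they were Cavin2, a caveolar protein (distance 0.32), the chemokine Ccl5 (0.43) and the kinase Plk2 (0.45). For Igf1 they were Itgbl1 (0.31), Omd, a bone proteoglycan (0.34), and the adhesion molecule Vcam1 (0.36). The nearest to Igfbp7 were Fas, a death receptor (0.20), Bdh2 (0.22) and Zfpm2, a GATA cofactor (0.22). The nearest to Igfbp5 were Ptgfr, the prostaglandin F receptor (0.31), Rspo3, a Wnt amplifier (0.38), and the potassium channel Kcnt2 (0.56). All 3 of the last group were under the receptor reference in 4L, at 2.54 to 2.62, and highest in 9L, at 7.39 to 7.64. These are the smallest of many distances over only 5 points, and say nothing of shared control.

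**Figure D3:**
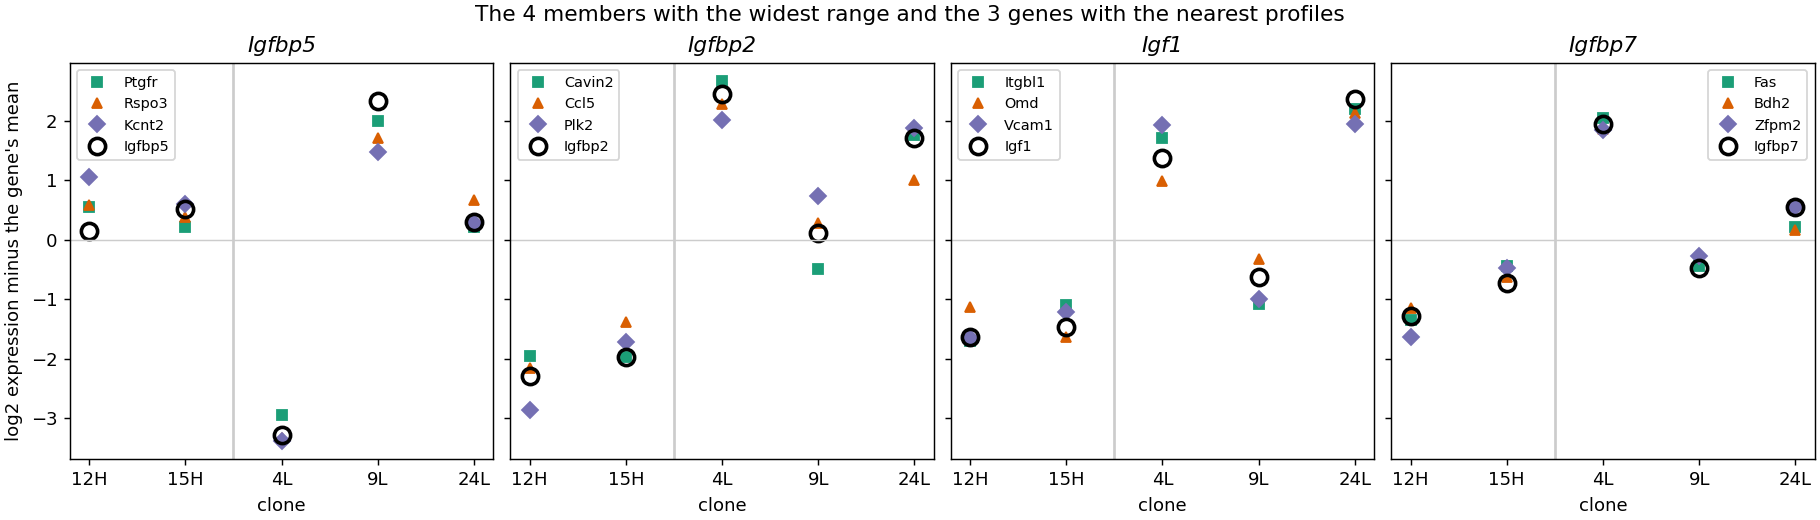
Log2 expression minus each gene's mean (vertical axis) in the 5 clones (horizontal axis, high-Sost clones left of the grey line) for the 4 genes of widest range (open circles) and, for each, the 3 genes with the nearest profiles (filled symbols). Distances run from 0.20 for Fas with Igfbp7 to 0.56 for Kcnt2 with Igfbp5, and the Igfbp5 panel turns on clones 4L and 9L.

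Of the 10 genes, 4 lie close to a tensin gene. By the order of protein-coding genes in RefSeq, a tensin gene, which encodes an adhesion protein linked to actin, lies within 2 genes of Igfbp3 (Tns3), Igfbp4 (Tns4), Igfbp5 (Tns1) and Igfbp6 (Tns2). Tns1 read 5.65 in 12H, 6.48 in 15H, 5.15 in 4L, 7.88 in 9L and 5.97 in 24L, which is the order of clones for Igfbp5 with a smaller span. Tns3 read 7.89 in 12H and 8.47 in 15H against 7.09 to 7.46 in the low-Sost clones, unlike Igfbp3 beside it. Tns4 read 3.15 to 3.35, under the receptor reference in every clone. Igfbp1, the other neighbour of Igfbp3 and a liver protein, read 2.65 in 4 clones and 2.99 in 12H, and Ins2, the neighbour of Igf2, 1.48 to 1.83, all under the receptor reference. The neighbours were named after their values were seen, and shared control was not tested.

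The rest of the pathway was tested with limma in the fit over all named genes. Of 93 listed genes that are not among the 10, 82 were measured and 11 are not analysed here. None of the 82 passed at an adjusted p under 0.05 (0 higher, 0 lower), nor did any gene of the array (0% called, smallest adjusted p = 0.0856). At an unadjusted p under 0.05 limma placed 4 of the 82 higher and 2 lower in the high-Sost clones, 7.32% against 5.78% of all named genes. These 6 became 10 without 4L and 11 without 9L. An exact permutation test of 2 clones against 3 cannot give a p under 0.1. By size, 3 lay 2-fold or more above and 1 as far below without overlap, where all named genes gave 0.867% and 0.983%, and the median difference was 0.01. All lists were drawn up with earlier results of these data known, so no result about the pathway is read from these shares.

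Enzymes that act on IGFs and their binding proteins held 3 of those 4 genes, among 13 measured. This list too was drawn up with earlier results known, so nothing is read from that number. Adam12, a metalloprotease that cuts IGFBP3 and IGFBP5, read 6.57 in 12H and 6.32 in 15H, while 4L, 9L and 24L gave 3.78, 3.48 and 4.37 (difference 2.57, SE 0.32, limma adjusted p = 0.572). This large gap was known when the list was drawn up. Adam12 in 4L and 9L stood little above the receptor reference of 3.45 and 3.42. Pcsk6, a proprotein convertase, read 8.02 in 12H and 8.33 in 15H, while 4L, 9L and 24L gave 3.72, 6.55 and 5.97 (difference 2.77, SE 1.01, limma adjusted p = 0.737). Its value in 4L also stood little above the reference, and without 4L the Pcsk6 difference was 1.92. Htra1, a serine protease that cuts IGFBP5, ran the other way, with 7.48 and 8.12 while 4L, 9L and 24L gave 9.57, 8.40 and 8.81 (difference -1.13, SE 0.45, limma adjusted p = 0.737). The Htra1 difference fell short of 2-fold without 4L (-0.80) or without 12H (-0.81). Its order of clones was that of Igfbp2 and Igfbp7. The pappalysin genes Pappa and Pappa2 differed by -0.28 (SE 0.18) and -0.70 (SE 0.36).

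Genes of IGF1 receptor signalling included 32 of 40 measured, with a median difference of 0.02 and 1 at least 2-fold apart. Foxo1, a transcription factor that AKT keeps out of the nucleus, read 8.10 in 12H and 7.95 in 15H, while 4L, 9L and 24L gave 7.05, 7.01 and 6.35 (difference 1.23, SE 0.27, limma adjusted p = 0.720). Akt1, the kinase itself, read 9.59 and 9.43 against 9.08 to 9.20 in the low-Sost clones (difference 0.38, SE 0.07, limma adjusted p = 0.624). The groups did not overlap for either gene. The adaptors Irs1 and Irs2 differed by -0.26 (SE 0.16) and 0.08 (SE 0.47).

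In the other lists 0 genes were at least 2-fold apart without overlap. Of 8 further family genes, the insulin receptor Insr read 6.45 and 6.38 against 5.72 to 6.18 (difference 0.44, SE 0.16, limma adjusted p = 0.737), and with chromosome shifts subtracted its difference was 0.23. Ins2, under the receptor reference in every clone, differed by 0.14 (SE 0.09). Of 12 genes of the growth hormone axis, the feedback inhibitors Cish and Socs3 differed by -0.49 (SE 0.14) and -0.36 (SE 0.14), and Ghr, the growth hormone receptor, by -0.36 (SE 0.16). Of 17 imprinted growth genes, Plagl1, a zinc finger factor, differed by 0.73 (SE 0.43) and Gnas by 0.33 (SE 0.17). Plagl1 differed by 0.38 without 12H and 0.46 without 4L, and Gnas by 0.21 without 12H and by 0.21 without 4L. H19, the imprinted partner of Igf2, read 2.76 in all 5 clones, under the receptor reference.

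**Figure D4:**
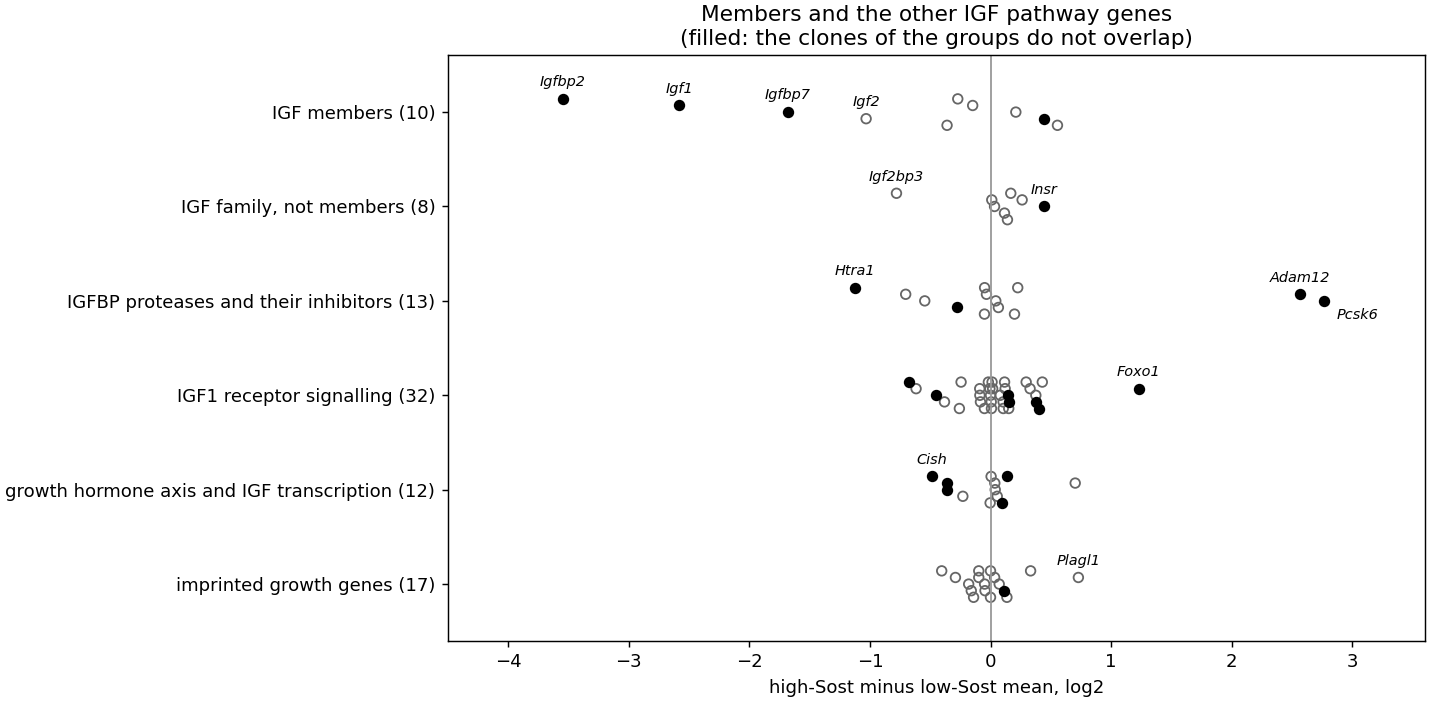
Difference between the high-Sost and low-Sost means on the log2 scale (horizontal axis) for the 10 genes of the family and for the 5 lists of other pathway genes (vertical axis, number measured in brackets), with filled points where the clones of the groups do not overlap. Adam12 (2.57), Pcsk6 (2.77), Foxo1 (1.23) and Htra1 (-1.13) lie outside 1 log2 unit, and most other pathway genes lie near 0.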

How the data were processed

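Biotin-labelled total RNA of 5 clones was measured on 1 Affymetrix array each, per the labels' protocols. The authors' deposited values are log2 expression per probe set. R 2.15.1, affy 1.36.1 and RMA are listed in the submitters' processing notes. RMA gives arrays nearly 1 distribution and so hides a change common to most genes. Array medians were 4.13 to 4.16. Precision is limited by having 5 arrays.

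Gene names came from the platform table, updated by Entrez number against RefSeq (GRCm38.p6, used for names, gene order and promoters): 23185 had 1 gene, 0 several, and 2021 of 25206 had none and were left out. limma 3.58.1 in R 4.3.3 (lmFit, eBayes, 3 residual degrees of freedom, prior 0.70, two-sided, Benjamini-Hochberg over 23185 genes) compared 2 high-Sost with 3 low-Sost clones and was tested on simulated data. Its p-values set the difference between the groups against the spread between clones. The simulated data had independent noise for each gene and array, so they do not cover values tied between arrays or shifts of whole chromosomes. Chromosome shifts are per-chromosome medians, over genes with a mean of 6 or more, of each clone's deviation from the median of the other clones, centred on all chromosomes.

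The 10 genes and all lists were chosen with earlier results of these data known. From each list up to 4 genes at least 2-fold apart without overlap were named, filled to 2 by smallest p. Pdpn, Col1a1, Pappa, Pappa2, Irs1, Irs2, Ghr, H19, the neighbouring genes and those under other observations were named after their values were seen. Alternatives were 2 array scalings, chromosome shifts, a filter leaving out the dimmest 30% of genes, 4 variance models, an adjusted p under 0.1 and leaving out each clone. Figures were drawn with matplotlib 3.10.9.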

Additional observations from a re-analysis of the deposited data

How the results depend on the processing

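The count of genes passing limma's adjusted p under 0.05, 0 as reported, was 2 with arrays shifted to 1 median, 2 with chromosome medians subtracted, 1 with the unmoderated equal-variance test (a gene whose clones were tied within each group) and 3 at an adjusted p under 0.1. It was 0 in the other settings, with 0 to 0 when each clone was left out. Of all named genes, those at least 2-fold lower without overlap went from 228 to 377 without 9L and 472 without 15H, those higher from 201 to 302 and 348, and those without overlap of any size from 3710 to 6146 without 9L, 8622 without 12H and 10697 without 15H. The count at an unadjusted p under 0.05 went from 1340 to 2106 without 12H, 3105 without 15H and 868 with the unmoderated test. In the pathway lists 0 of 82 genes passed after adjustment in every setting run. The count of the 10 genes at least 2-fold apart without overlap was 3 to 4 when each clone was left out, and 3 under the scalings and with chromosome shifts subtracted. Of 80 recomputed differences of the 10 genes, 77 moved by less than the SD within groups. The other 3 were Igfbp3 without 12H (-0.07) and without 15H (-0.47), and Igfbp6 with chromosome shifts subtracted (0.05). The sign changed in 5, for Igfbp4, Igfbp5 and Igfbp6. The count of 77 is no measure of stability, since the SD within groups comes from the same values. Leaving out a low-Sost clone cannot move a difference beyond that SD. Shifts inside it included Igfbp5 from 0.56 to -0.98 without 4L and Igf2 from -1.03 to -0.34 without 9L. Of the 12 genes nearest in profile, 12, 11 and 8 stayed with arrays shifted, quantile normalization again and chromosome shifts subtracted, settings added for this after seeing the data. Fits without 12H or 15H take the spread of the remaining high-Sost clone from the low-Sost ones. Signal near the receptor reference limits Igf1 in the high-Sost clones, Igfbp5 in 4L, and Igfbp3 and Sost throughout. It also limits Adam12 in 4L and 9L, and Pcsk6 in 4L.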

Other observations

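Some genes of the pathway lists varied between clones without following the Sost label (chosen here with their values in view). Mest, an imprinted growth gene, read 4.97 in 4L, 7.04 in 12H, 7.45 in 15H, 7.78 in 9L and 9.40 in 24L, so the extremes were both low-Sost clones. Igf2bp3, which encodes an RNA-binding protein named for Igf2 mRNA, read 3.90 in 12H and 5.45 to 5.84 in the other clones. Grb14, an adaptor that inhibits insulin receptor signalling, read 4.52 in 4L and 6.22 to 7.00 elsewhere. Beside Igfbp7 on chromosome 5, Adgrl3, an adhesion receptor, read 5.86 in 4L and 2.37 to 3.18 in the other clones.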
